A study of Mus musculus with 2 samples.

Results

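The genes described here are osteocalcin and the enzymes, transporters and inhibitors that set where bone mineral forms: Bglap, Bglap2, Alpl, Phospho1, Enpp1, Ank, Mgp and Ifitm5. They were taken by gene symbol from the count tables, with no threshold on their values. Of the 8 symbols, 7 had a row in both tables, among 19430 genes in all, and Bglap2 was not analysed here. The data were Visium spatial transcriptomes of fixed tissue, in which gene-specific probe pairs, once joined on their RNA, are caught by spots that each carry a position code, so that each unique molecular identifier (UMI) is a probe pair counted at a known place and a spot can hold several cells. A control mouse (Nf1[+/flox], without Postn-cre) and an Nf1Postn mouse (Postn-cre;Nf1[flox/-]) were used, female littermates, both with a pinned fracture of the distal tibia made at 8 weeks of age and both calluses collected after 10 days, decalcified in 14% EDTA and embedded in the same block. Both carried a floxed Nf1 allele, the Nf1Postn mouse also carried a germline null allele, and its Cre was driven by the periostin (Postn) promoter. This promoter is active in the periosteum and not in every cell of the callus. Per the paper, periostin protein was confined to the periosteum before fracture but was found more widely in the callus 10 days after it. The 2 sections of the block are labelled as biological replicates, but each holds the same 2 calluses, so they repeat the measurement and not the animal.

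Bone mineral forms where phosphate outweighs its inhibitor pyrophosphate. ENPP1 makes pyrophosphate from ATP outside the cell, ANK exports its source from the cell, and tissue-nonspecific alkaline phosphatase (Alpl) breaks it down to phosphate. PHOSPHO1 releases phosphate inside matrix vesicles, where the first crystals form, and both phosphatases are found in hypertrophic cartilage as well as in osteoblasts. Osteocalcin (Bglap) and matrix Gla protein (Mgp) are small proteins that bind calcium through vitamin K-dependent Gla residues. The former is a late product of osteoblasts, and the latter keeps cartilage and vessels free of mineral. Ifitm5, also called BRIL, encodes a membrane protein of osteoblasts that is mutated in a form of osteogenesis imperfecta.

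Osteocalcin is encoded in the mouse by neighbouring gene copies, which limits what a Bglap count means. In GRCm39, Bglap lies on the minus strand at chr3:88290808-88291771 and Bglap2 at chr3:88285043-88286060. Their coding sequences (GENCODE vM39) are shown because the counts cannot be read without them, with the bases that differ in capitals.
Bglap: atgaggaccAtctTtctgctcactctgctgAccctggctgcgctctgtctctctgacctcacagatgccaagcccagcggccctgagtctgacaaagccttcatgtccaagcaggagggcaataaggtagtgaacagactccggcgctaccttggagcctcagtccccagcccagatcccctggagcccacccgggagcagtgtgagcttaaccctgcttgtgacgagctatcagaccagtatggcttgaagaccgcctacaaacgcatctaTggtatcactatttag
Bglap2: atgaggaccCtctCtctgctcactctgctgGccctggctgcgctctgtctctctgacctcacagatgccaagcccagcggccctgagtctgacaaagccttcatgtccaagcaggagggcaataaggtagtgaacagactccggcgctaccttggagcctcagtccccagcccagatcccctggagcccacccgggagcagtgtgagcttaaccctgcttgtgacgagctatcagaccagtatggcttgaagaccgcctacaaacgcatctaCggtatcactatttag
They differed at 4 of 288 bases and were 98.6% identical, with an identical stretch of 241 bases. Of the 239 windows of 50 bases in the coding sequence, 192 held no difference. The probe sequences were not used here, so the row named Bglap is read as osteocalcin RNA and may include transcripts of Bglap2. The same may hold for Bglap3, another neighbouring copy, at chr3:88275923-88280052, whose sequence was not compared.

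The promoter of Bglap is shown because its level separated the regions of the callus most widely among the members, as described below, and because osteoblast genes are classic targets of RUNX factors. The 250 bases before its start (RefSeq, GRCm38.p6, chr3:88384467-88384716, minus strand) are given with matches to the RUNX core TGTGGT, or ACCACA on the other strand, in capitals.
Bglap promoter: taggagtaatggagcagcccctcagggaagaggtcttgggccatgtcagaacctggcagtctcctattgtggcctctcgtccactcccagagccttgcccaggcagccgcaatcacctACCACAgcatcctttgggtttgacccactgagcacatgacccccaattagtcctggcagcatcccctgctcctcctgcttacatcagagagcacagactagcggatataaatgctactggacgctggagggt
The single match began 132 bases before the start. Among the 6 members with a promoter in the table, Enpp1 had a match too, and 14.0% of 32851 promoters held one in the same window, so the match is a description of the sequence only.

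Depth and tissue differed between the genotypes. Control spots numbered 1700 and 1778 in sections 1 and 2, with a median of 7053 and 5718.5 UMIs, and Nf1Postn spots 1341 and 1556, with 2030 and 3239.75 UMIs. Levels are given as counts per 1000000 UMIs, summed over the spots of a group (CPM), with exact Poisson 95% intervals that cover counting error only. Probes differ between genes, so levels were not compared between genes. With 1 mouse per genotype no test was run, and a difference that holds in both sections may still be one between these animals. The 7 muscle genes summed to 13913 and 22726 CPM in the control and to 65206 and 113930 CPM in the Nf1Postn callus, and all 7 were at least 2-fold higher in both sections, as were the 3 red cell genes. Genotype ratios are therefore also given without the regions rich in muscle RNA. Cartilage RNA went the other way: the 7 cartilage genes summed to 45768 and 28856.5 CPM in the control and to 4018 and 8075 CPM in the Nf1Postn callus. Of these genes, 6 were at least 2-fold lower in both sections. No ratio is given without the cartilage regions. Fewer cells of a type and less RNA per cell cannot be told apart in such sums. Nf1 itself was at 87.8 and 79.0 CPM in the control and 65.6 and 49.6 CPM in the Nf1Postn callus, but where its probes lie relative to the deleted exons was not given in the sources used here. The sections share 2711 barcodes, since barcodes are codes of positions that recur on each capture area.

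**Figure D1:**
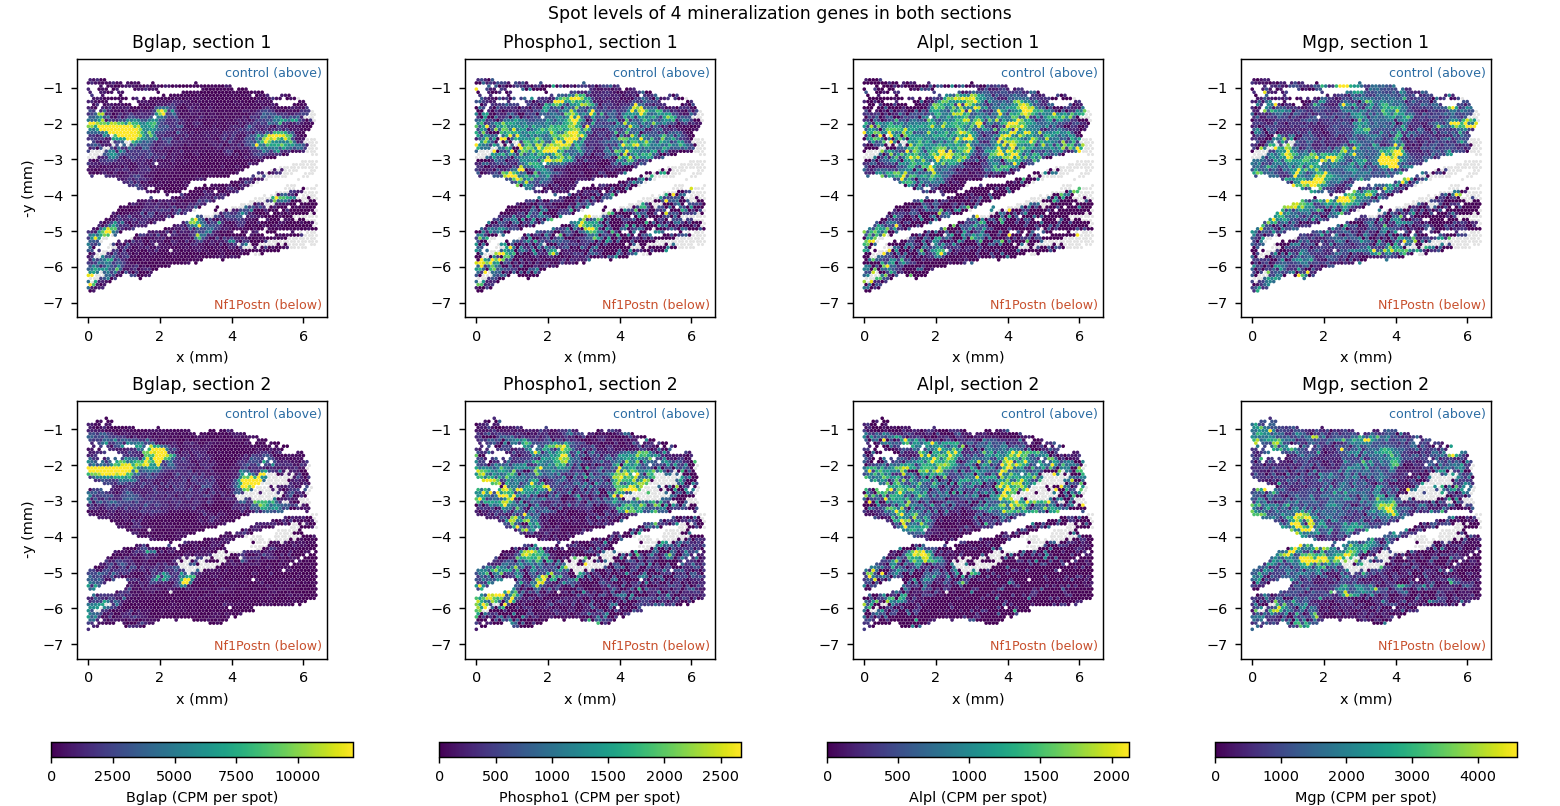
Level of Bglap, Phospho1, Alpl and Mgp in each spot of section 1 (above) and section 2 (below), in CPM, plotted by position on the capture area in mm. The control callus is the upper and the Nf1Postn callus the lower tissue, spots with under 1000 UMIs are grey, and colours end at the 98th percentile of each gene. Bglap is bright in patches at the left and right of the control callus, Alpl and Phospho1 form broader bands closer to its middle, and Mgp is bright along the lower edge of the control and in the upper strand of the Nf1Postn callus.

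Osteocalcin RNA was unevenly spread over the spots. The tenth of spots with the most Bglap UMIs held 60.4% and 62.8% of its UMIs in the control callus of sections 1 and 2, against 32.8% and 38.9% for Alpl and 33.7% and 35.4% for Mgp. Enpp1 (56.8% and 62.3%) and Ifitm5 (53.8% and 55.2%) came close to it, but most spots had 0 UMIs of these genes. In the Nf1Postn callus the share was higher for Alpl, 58.2% and 63.3%, than for Bglap, 55.7% and 56.6%. There, however, only 40.0% and 34.8% of spots had an Alpl UMI, against 66.2% and 64.2% for Bglap. The median control spot had 4 and 5 Bglap UMIs and the richest 276 and 358. Neighbouring spots resembled each other more for Bglap than for the other members: after thinning each spot to 1000 UMIs, Moran's I, which is 0 without spatial order, was 0.43 and 0.44 in the control and 0.36 and 0.32 in the Nf1Postn callus. For Alpl, Phospho1 and Mgp it lay between 0.11 and 0.26 in all 4 groups, and for Ank, Enpp1 and Ifitm5 at or below 0.06, where most spots have no UMI after thinning. These are descriptions of spots that share a section. In the plotted maps, the bright Bglap patches of the control callus lie toward its ends, whereas Alpl and Phospho1 fill bands closer to its middle.

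The spots were grouped into 13 regions by their RNA, with the members and all listed genes left out. Regions were matched to the study's tissue classes, which were published with the paper and cover control spots of the first section. Region 2 was led by the osteoclast genes Acp5, Mmp9 and Siglec15, and 95.3% of its section 1 control spots were labelled woven bone, so it is called the woven bone region by its match. Region 3 (led by Crabp1, Gpnmb and Ptgfr) matched ossifying perichondrium at 92.6% and region 10 (Col10a1, Ihh and Snorc) matched cartilage at 100%. Region 11 (Ucma, Scrg1 and Cnmd) matched cartilage at 51.8% and ossifying perichondrium at 48.2%, and region 8 (Cadm4, Cfd and Gap43) matched the progenitor class at 80.3%. The remaining ones are named by their leading genes: region 1 by Hbb-bs and Hba-a2, with 28.3% labelled distal cortical bone, region 7 by Angptl7, Cilp2 and Myoc, with Mepe and Sost among its leading 10, region 5 by Mmp3 and Il1rn, region 6 by Hbb-bt, Hbb-bs and Camp, region 4 by Myh7 and Ckmt2, region 12 by Perm1 and Ckmt2, and region 9 by Myh3 and Tnnt2, all muscle genes in the last 3. Region 13 held spots of very low depth. Regional levels are compared over the 9 regions with at least 20 control spots in each section (1, 2, 3, 5, 7, 8, 9, 10 and 11).

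Bglap was highest, in both control sections, in region 1, at 6573 and 5764 CPM. The woven bone region had 3799 and 4623 CPM and region 7 had 4132 and 2826 CPM, so that their order differed between the sections. Its lowest level was in the Ucma-led cartilage region 11, at 259.5 and 155 CPM, and the Col10a1-led region 10 had 698 and 640 CPM. Osteocalcin RNA thus spanned 4.66 and 5.21 log2 units between regions of the same callus, and the cartilage that precedes bone in this kind of repair was at the low end. The woven bone region held 66.9% and 46.3% of all Bglap UMIs of the control, on 31.2% and 20.9% of all UMIs, while region 1 held 8.35% and 10.2% on 2.25% and 3.68%.

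Both phosphatases were distributed otherwise. Alpl was at 1311 and 1125 CPM in the Col10a1-led cartilage region and at 1173 and 1203 CPM in the woven bone region, so the order of these regions differed between the sections. Its lowest regional levels were in the Myh3-led region 9, at 275 and 169.5 CPM. Phospho1 was highest in the woven bone region, at 1506 and 1547 CPM, and next in the Col10a1-led region in section 1, at 1159 CPM, whereas in section 2 region 1 and the Col10a1-led region were close to each other, at 1041 and 1032 CPM. Of these regions, both phosphatases were thus high in the Col10a1-led cartilage and in woven bone, and Bglap only in the latter. There were 0.53 and 0.57 Bglap UMIs for each Alpl UMI in the Col10a1-led region, 3.24 and 3.84 in the woven bone region, and 9.02 and 7.71 in region 1.

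Ifitm5 was highest in the woven bone region, at 195 and 175 CPM, and region 1 followed at 112 and 101 CPM. In section 1 the ossifying perichondrium region, at 111 CPM, and the Col10a1-led region, at 104 CPM, were close to it. Its level in the Ucma-led region was 34.0 and 28.8 CPM. Phospho1 and Ifitm5 were the 2 of 7 members with their highest level in the woven bone region in both sections, where 2.81% of 11294 genes had theirs. With the study's own labels, which were made from the same counts, Alpl and Ank were added. Fewer, larger regions added Alpl and Bglap, and more, smaller regions added Bglap. The share of all genes was not taken at these settings, so the added members are not read as a result.

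The inhibitors of mineralization had other profiles. Mgp was highest in the Col10a1-led cartilage region, at 2643 and 2471 CPM, and next in section 1 in region 8, with 1857 CPM, and in section 2 in the Ucma-led region, with 1843 CPM. It was lowest in the woven bone region, at 937 and 699 CPM. Bglap and Mgp, which share the Gla domain, thus had their highest and lowest levels in different regions. In region 1, where Bglap was highest, Mgp was at 1097 and 976 CPM, above its lowest level. Bglap UMIs per Mgp UMI went from 0.15 and 0.08 in the Ucma-led region to 5.99 and 5.91 in region 1. Ank ranged from 70.8 to 201 CPM in section 1 and from 89.9 to 268 CPM in section 2, with a different highest region in each. Enpp1 was low everywhere, with 519 and 456 UMIs in the whole control callus of sections 1 and 2, and its highest region, region 5 in section 1 at 76.8 CPM, was not the highest in section 2. The order of the regions for Enpp1 was therefore not resolved at this depth.

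**Figure D2:**
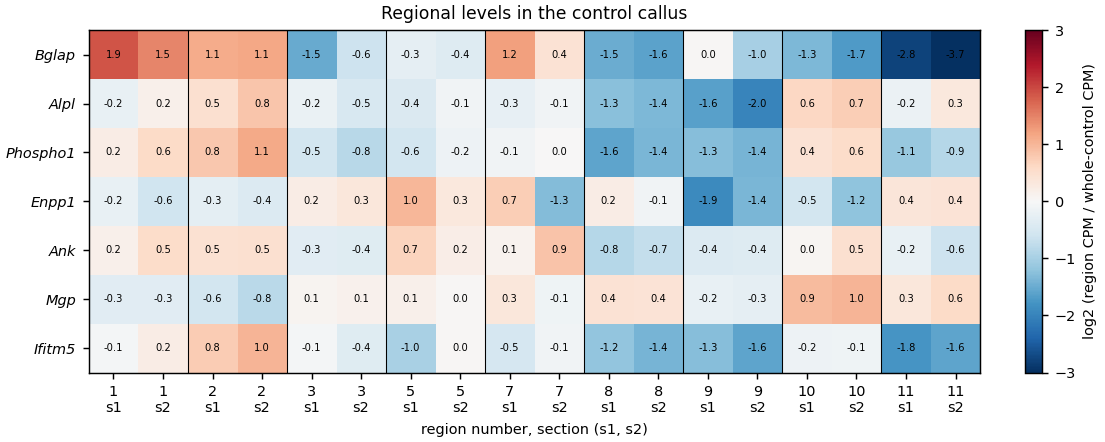
Regional level of each member in the control callus as the log2 ratio of its CPM in a region to its CPM in all control spots of that section, for the 9 regions compared. The columns s1 and s2 are the sections. Bglap runs from 1.89 in region 1 (section 1) to -3.75 in region 11 (section 2), Mgp is highest in region 10, and Phospho1 and Ifitm5 are highest in region 2.

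Muscle is a tissue in which bone genes should be near background. In the muscle-led regions 4 and 12 together, Bglap was still at 572 CPM in 97 control spots of section 1 and 894 CPM in 18 control spots of section 2, and 91.8% and 100% of these spots had a UMI, at a median depth of 4347.5 and 4066 UMIs. In the Nf1Postn callus the same regions had 205 and 197 CPM and 33.6% and 49.2% of spots with a UMI, at a median depth of 1905.25 and 3582.5 UMIs. Ifitm5 was at 15.2 and 38.9 CPM in control and at 5.84 and 9.54 CPM in Nf1Postn muscle, from 3 to 23 UMIs in each group. In the control muscle of section 1, Bglap was at 784 CPM (563 to 1064) within 0.15 mm of regions 1, 2 and 7. Beyond 0.5 mm it was at 574 CPM (442 to 733), with overlapping intervals. In section 2 it was at 2017 CPM (1341 to 2916) in 4 control spots within 0.15 mm. From 0.15 to 0.5 mm it was at 768 CPM (546 to 1050), and these intervals did not overlap. The part of nearby bone in the control muscle level was not tested. In the Nf1Postn muscle of section 1, Bglap was at 278 CPM (180 to 410) within 0.15 mm of these regions and at 157 CPM (107 to 223) beyond 0.5 mm. In section 2 it was at 261 CPM (191 to 348) and 182 CPM (161 to 205), with overlapping intervals in both sections. The Bglap level of the Ucma-led cartilage region was below that of control muscle in both sections, and that of the Col10a1-led region above it in section 1 and below it in section 2, so no expression is read here from Bglap in cartilage. Alpl, at 80.4 and 168 CPM in control muscle, was far higher in both cartilage regions. The share of spots with a UMI was lower in the Nf1Postn callus for all 7 members, as for 92.4% of genes, but after thinning to 1000 UMIs this held for 5, against 40% of genes. For Bglap the thinned share was 55.5% (exact binomial 95% interval 53.1 to 57.9) and 60.9% (58.5 to 63.2) in control and 52.1% (49.2 to 55.1) and 36.1% (33.6 to 38.6) in Nf1Postn. The section 1 intervals overlapped.

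Position along the control callus was examined with SpatialTime, the study's measure of distance from the fracture plane, which runs from 0 to 25 and was given for skeletal spots of the section 1 control callus. Bglap was at 269 CPM in bin 0 to 4, at 446, 1399 and 3510 CPM in the next 3 bins and at 4768 CPM in bin 20 to 25. Its log2 ratio of the farthest to the nearest bin was 4.15 (95% interval 4.05 to 4.25). Ifitm5 was at 31.3, 147, 185, 175 and 119 CPM and Phospho1 at 350, 1056, 1346, 1159 and 734 CPM over the same bins. Both were highest in the middle bin, although the intervals of Ifitm5 in that bin and the next overlapped. The farthest-to-nearest log2 ratio was 1.93 (1.58 to 2.29) for Ifitm5 and 1.07 (0.95 to 1.19) for Phospho1. These were the 3 of 7 members at least 2-fold higher far from the fracture plane, against 5.76% of 9295 genes, and 0 were 2-fold lower, against 3.31%.

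Alpl had its plateau earlier, with 570 CPM in the nearest bin, 1134 and 1114 CPM in the next bins, then 1008 and 767 CPM, and a ratio of 0.43 between the ends. Mgp was at 1518, 1891, 1118, 1072 and 1410 CPM, with its highest value in bin 5 to 9. Ank was between 116 and 146 CPM in all bins, and Enpp1 was at 54.2 CPM nearest the fracture plane and between 26.5 and 35.5 CPM elsewhere, a log2 ratio of -0.61 (-1.09 to -0.15) between the ends. Around the members, the 4 osteocyte genes with at least 50 UMIs and 4 of 9 matrix-binding genes were at least 2-fold higher far from the plane, with Dmp1, Mepe (3.10) and Phex (2.51), the gene of X-linked hypophosphatemia, in both lists. Of 6 genes of pyrophosphate and phosphate handling, the phosphate transporter Slc20a2 was higher, at 1.67, and Nt5e, which makes adenosine from AMP, was lower, at -1.95. The bins differ in tissue as well as in distance: all 7 muscle genes were at least 2-fold higher and all 7 cartilage genes 2-fold lower far from the plane, and their part in these profiles was not tested.

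A distance that both sections share was taken from each control spot to the nearest spot of the cartilage regions 10 and 11. Bglap was at 378 CPM (section 1) and 296 CPM (section 2) within them, at 504 and 875 CPM up to 0.25 mm away, at 1040 and 2261 CPM up to 0.5 mm and at 4099 and 3681 CPM between 0.5 and 1 mm. Beyond 1 mm it was at 3462 CPM in section 1 and at 1371 CPM in section 2. Ifitm5 was at 52.9 and 43.4 CPM inside and at 175 and 119 CPM up to 0.25 mm away. It was at 141 and 99.7 CPM up to 0.5 mm and at 130 and 87.2 CPM between 0.5 and 1 mm. Phospho1 was at 598 and 575 CPM inside, 1096 and 881 CPM up to 0.25 mm away and 962 and 872 CPM up to 0.5 mm. Ifitm5 and Phospho1 were thus highest next to the cartilage, but in section 2 their intervals up to 0.25 mm and up to 0.5 mm overlapped. Bglap and Ifitm5 were the 2 of 7 members at least 2-fold higher between 0.5 and 1 mm than inside the cartilage in both sections, against 10.5% of 9134 genes. Mgp ran the other way, from 1987 and 2025 CPM inside to 939 and 989 CPM between 0.5 and 1 mm. Alpl was at 897 and 925 CPM inside, 1091 and 884 CPM up to 0.25 mm away and 513 and 418 CPM beyond 1 mm.

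**Figure D3:**
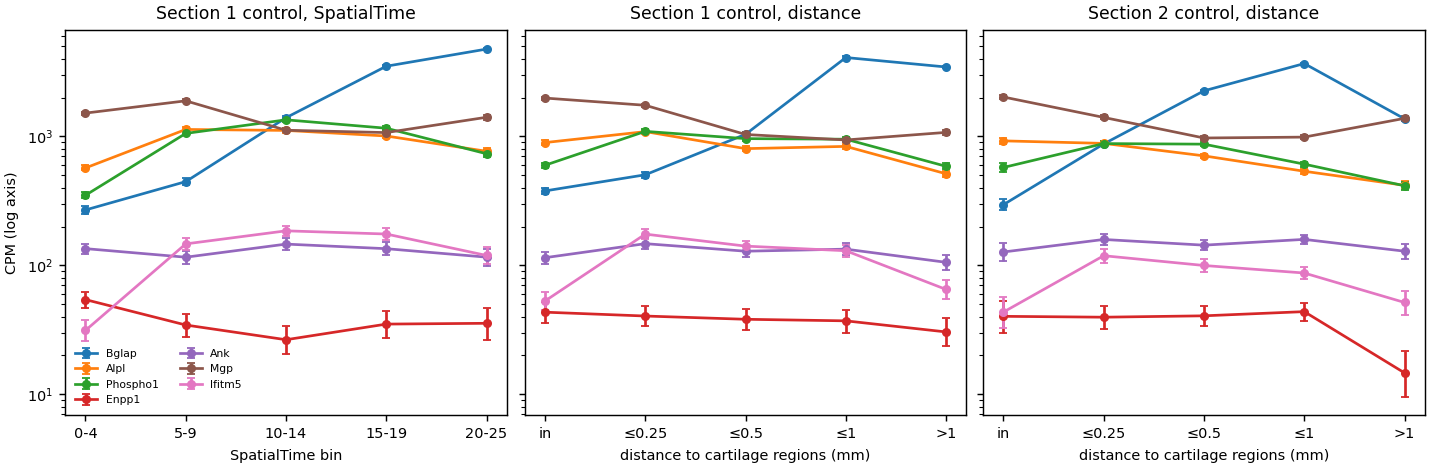
Level in CPM (log axis) of the 7 members over SpatialTime bins in the section 1 control callus, and over bins of distance from the cartilage regions (within them, up to 0.25, 0.5 and 1 mm, and beyond) in the control callus of both sections, where bars are exact Poisson 95% intervals. Bglap goes from 269 to 4768 CPM over SpatialTime, Ifitm5 and Phospho1 are highest in the middle bin, and Mgp is highest in bin 5 to 9. Lines join the bins of a gene, and levels of different genes are not comparable.

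Within woven bone, the study split section 1 control spots by pseudotime, an ordering computed from the same counts. Bglap was at 8534 CPM in the pseudotime-low and at 3555 CPM in the pseudotime-high spots, a log2 ratio of 1.26. It was the 1 of 7 members at least 1.5-fold higher, against 7.35% of 8270 genes. The other members lay between -0.24 (Phospho1) and 0.39 (Enpp1, from 14 UMIs in the pseudotime-low spots). The 4 osteocyte genes with at least 50 UMIs were all at least 1.5-fold higher. Sost, an inhibitor of bone formation, had a log2 ratio of 1.28, Phex of 1.04, Mepe of 0.87 and Dmp1 of 0.63. Col1a1, the main bone collagen, was at 0.05. As the classes were made from these counts, this is a description.

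The members had different neighbours among all genes. Over 20 control profiles (a region in a section), the gene whose log2(CPM + 1) was most like that of Bglap was Sost (Pearson r = 0.92), among 7532 genes with at least 500 UMIs, then Lifr (0.87) and Mindy2 (0.86). Alpl was most like Plcd1 (0.99) and Pth1r, the parathyroid hormone receptor (0.99), Phospho1 like Irx5 (0.87), Ocstamp and Siglec15, Ifitm5 like Col13a1 (0.97), Mgp like the cartilage gene Chad (0.82), Ank like Atp5o (0.98) and Enpp1 like Cdc25b (0.94). The profiles share sections and depth, and 1 of them, region 13 of section 1, held only 5747.5 UMIs, with many genes at 0. Without it, 7 of the 35 nearest genes remained among the nearest 5 of their member: Sost and Lifr for Bglap, Plcd1 and Pth1r for Alpl, Irx5 for Phospho1, Chad for Mgp and Atp5o for Ank. Over the 19 profiles left, r was 0.85 between Phospho1 and Ifitm5, 0.78 between Alpl and Ifitm5, 0.76 between Alpl and Phospho1, and 0.60 between Bglap and Phospho1. It was 0.21 between Bglap and Alpl and -0.41 between Bglap and Mgp. Across single spots thinned to 1000 UMIs the correlations were weak, at most 0.22 between 2 members in the control callus (Alpl and Phospho1, and Bglap and Phospho1, in section 2).

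The genotypes were then compared over all spots. Alpl was at 847 CPM (95% interval 831 to 862) and 673 CPM (658 to 687) in the control and at 343 CPM (324 to 363) and 208 CPM (197 to 220) in the Nf1Postn callus of sections 1 and 2. Ifitm5 was at 116 CPM (110 to 122) and 86.9 CPM (81.8 to 92.4) in the control and at 48.8 CPM (41.7 to 56.8) and 35.1 CPM (30.5 to 40.2) in the Nf1Postn callus. Their log2 ratios of Nf1Postn to control were -1.30 and -1.69 for Alpl and -1.25 and -1.31 for Ifitm5. These 2 of 7 members were at least 2-fold lower in both sections, against 1.58% of 11851 genes, and no member was 2-fold higher, against 4.21%. Over both sections pooled, Alpl had rank 82 and Ifitm5 rank 144 from the lowest ratio among these genes, and the median of all genes was -0.09.

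Bglap was at 1768 CPM (1746 to 1790) and 2085 CPM (2059 to 2111) in the control and at 1155 CPM (1120 to 1192) and 660 CPM (639 to 681) in the Nf1Postn callus. Its log2 ratio was -0.61 in section 1 and -1.66 in section 2, with intervals that did not overlap, so the sections of the same calluses differed by more than counting error. Phospho1 was at 854 and 700 CPM in the control and at 477 and 429 CPM in the Nf1Postn callus, a log2 ratio of -0.84 and -0.71. Mgp was at 1378 and 1229 CPM against 1170 and 970 CPM, a ratio of -0.24 and -0.34. Ank, at 127 and 147 CPM against 144 and 123 CPM, was slightly higher in section 1 (0.18) and lower in section 2 (-0.26). Enpp1 was at 38.3 and 37.6 CPM against 37.8 and 26.6 CPM, and its ratio of -0.02 (-0.30 to 0.26) in section 1 included 0, while that of -0.50 (-0.77 to -0.24) in section 2 did not.

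**Figure D4:**
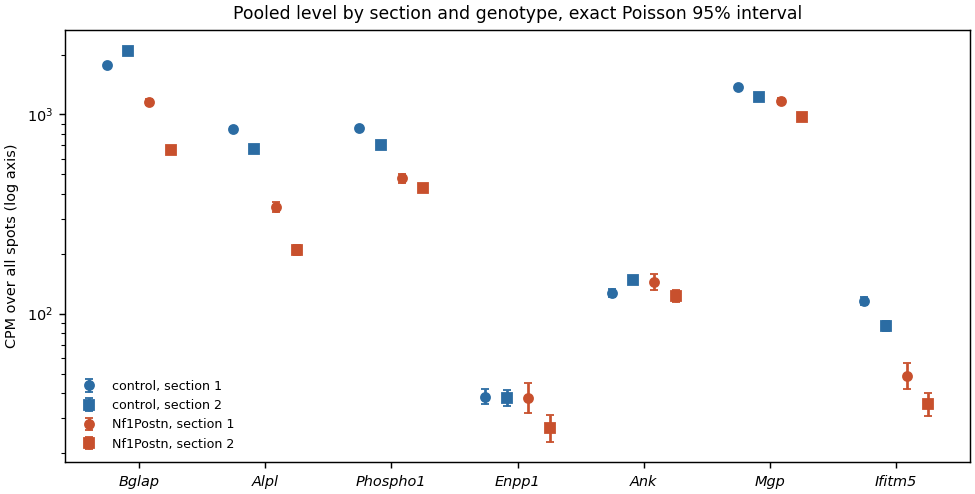
Level of each member over all spots of a section and genotype, in CPM on a log axis, with exact Poisson 95% intervals, as circles for section 1 and squares for section 2. Both Nf1Postn values lie below both control values for Bglap, Alpl, Phospho1, Mgp and Ifitm5, and the groups overlap for Ank and Enpp1.

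Other genes of the same processes were spread likewise. Of 6 measured genes that handle pyrophosphate and phosphate, 1 was at least 2-fold lower in both sections: Smpd3, a sphingomyelinase needed for skeletal mineralization, at -1.88 and -1.55, while Nt5e was at -1.39 and -0.96 and the phosphate transporter Slc20a2 at 0.13 and 0.07. The median of this list was -0.11. Among 9 measured matrix-binding genes, 2 were lower, Ibsp (bone sialoprotein, -1.31 and -1.09) and Phex (-1.02 and -1.10), and Spp1, encoding osteopontin, was at -0.98 and -1.47, with a list median of -0.98. Chad, in the same list, was lower in section 1 (-0.83) and higher in section 2 (0.30). The genes listed with Gla carboxylation (Ggcx, Vkorc1 and Gas6, which encodes a Gla protein, median -0.38) and the vesicle annexins (median -0.37) had none beyond 2-fold. Of the 6 bone-forming markers, 2 were lower, Sp7 (osterix, -1.04 and -1.59) and Pth1r (-1.25 and -1.23), and Col1a1 was at -0.61 and -1.16.

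For Alpl, Ifitm5, Bglap and Phospho1 the differences were smaller without the regions richest in muscle RNA. Region 6, led by Hbb-bt, Hbb-bs and Camp, is among these, so not only muscle was left out. It held 3 and 19 control but 273 and 211 Nf1Postn spots. The cartilage regions stayed in: region 10 had 189 and 101 control but 0 and 15 Nf1Postn spots, and region 11 had 141 and 66 but 0 and 1. After the spots of the 4 regions richest in muscle RNA were left out (regions 4, 6, 9 and 12, with 165 and 143 control and 573 and 924 Nf1Postn spots in sections 1 and 2), 0 of 7 members were at least 2-fold lower in both sections, against 0.405% of genes. Alpl was then at 892 and 724 CPM in the control and 429 and 413 CPM in the Nf1Postn callus, a log2 ratio of -1.06 and -0.81, and Ifitm5 had -0.95 and -0.38. Bglap had -0.25 and -0.84, with 1519 and 1227 CPM in the Nf1Postn callus, and Phospho1 had -0.67 and -0.20. All 4 stayed below 0 in both sections, whereas Mgp turned to 0.02 and 0.46 and Enpp1 to 0.31 and 0.22. The median of all genes was 0.12 in this setting and -0.09 over all spots.

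Within regions, where the tissue is closer to equal, the genotype ratios of the members were not the same from place to place, although with 1 mouse a genotype this was not tested. The woven bone region held 473 and 301 control spots but only 9 and 27 Nf1Postn spots. Bglap there was at 3799 CPM in control and 3814 CPM in Nf1Postn in section 1, and at 4623 and 1639 CPM in section 2, log2 ratios of 0.01 (-0.17 to 0.17) and -1.50 (-1.66 to -1.33). Phospho1 was higher in the Nf1Postn spots, at 1934 against 1506 CPM and 2183 against 1547 CPM, with ratios of 0.36 (0.11 to 0.60) and 0.50 (0.35 to 0.64). Alpl was at -0.33 (-0.69 to 0.01) and 0.03 (-0.17 to 0.22), and Mgp at -0.30 and 1.26. In this region 0 of 7 members were 2-fold lower in both sections, against 1.67% of 7415 genes, and 0 were 2-fold higher, against 0.634%. The few mutant spots were not the same tissue in every respect, since the 7 osteoclast genes summed to 17283 CPM in the control and 3449 CPM in the Nf1Postn spots of this region, the 6 osteocyte genes to 2616 and 598 CPM, the hypertrophic genes to 1244 and 409 CPM and the cartilage genes to 20544 and 31033 CPM, while the bone-forming markers were at 146601 and 149845 CPM. These sums pool both sections and so cannot be matched to the ratio of either. The part of these differences in the Bglap ratio was not tested.

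Region 1, which held the control's highest Bglap at the main clustering, was present in both genotypes, with 99 and 151 control and 442 and 255 Nf1Postn spots. Bglap was at 6573 and 5764 CPM in the control and at 2009 and 2002 CPM in the Nf1Postn spots, ratios of -1.71 (-1.80 to -1.62) and -1.53 (-1.62 to -1.43). It was 1 of 11 genes among 4484 that were at least 2-fold lower there in both sections (0.245%), and the only such member. Region 1 held 54.3% and 35.9% of all Bglap UMIs of the Nf1Postn callus, on 31.2% and 11.8% of all UMIs, and the woven bone region 7.15% and 7.85%. Alpl was at -0.90 and -1.18, Phospho1 at -0.71 and -0.46 and Ifitm5 at -1.11 and -0.51, whereas Mgp was at 0.06 and 0.22. The muscle genes summed to 33144 CPM in the control and 50006 CPM in the Nf1Postn spots of region 1, the bone-forming markers to 121410 and 82671 CPM and the osteocyte genes to 2261 and 1089 CPM. The red cell genes summed to 758 and 2310 CPM, the granulocyte genes to 132 and 521 CPM and the osteoclast genes to 9281 and 4314 CPM. All these sums pool both sections, and the part of this difference in tissue was not tested.

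In the ossifying perichondrium region, with 351 and 375 control but 24 and 46 Nf1Postn spots, Bglap was at 622 and 1357 CPM in control and 212 and 705 CPM in Nf1Postn, ratios of -1.55 and -0.95 where 0.8% of genes were 2-fold lower in both sections, while Alpl was at 0.03 and -0.43. In region 8, the match of the progenitor class, Bglap was at 631 CPM in control and 634 CPM in Nf1Postn in section 1, and at 681 and 530 CPM in section 2, a ratio of -0.36 (-0.59 to -0.13) in the latter. In the same region Alpl was at 354 and 262 CPM against 207 and 137 CPM, and Mgp was higher in Nf1Postn, at 2412 and 2191 CPM against 1857 and 1623 CPM. In region 9 Bglap was at 1819 and 1040 CPM in control and 183 and 443 CPM in Nf1Postn, ratios of -3.32 and -1.23, against 0.866% of genes 2-fold lower there. The section 1 value was the lowest ratio of a member in any region compared. In the muscle-led region 4 Bglap had -1.24 and -2.18, where 0.297% of genes were 2-fold lower in both sections. That region held only 18 control spots with 69 Bglap UMIs in section 2, fewer than the regions compared above, and its Bglap is the muscle level taken above as near background, so no difference is read from it. With region 4 set aside, Bglap was thus the only member 2-fold lower in both sections within regions 1 and 9, and 0 members were within regions 2 and 3. Region 9 is also led by muscle genes. Its Nf1Postn level of 183 CPM in section 1 was near that of Nf1Postn muscle, 205 CPM. In section 2 its 443 CPM lay above the 197 CPM of muscle. Bglap in muscle itself was at 572 and 894 CPM in control, against these 205 and 197 CPM in Nf1Postn. The part of this muscle difference in the ratios of regions 1 and 9 was not tested.

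Weighting the control's regional levels by the regions of the Nf1Postn callus gave 3281 and 1729 CPM of Bglap in sections 1 and 2. Only regions with at least 15 control spots were used, which held 83.7% and 99.9% of the Nf1Postn UMIs. Over these regions 1225 and 660 CPM were measured. In section 1, regions 6 and 12 were left out, with 3 and 1 control spots. In section 2, regions 4 and 6 rested on 18 and 19 control spots, those of region 4 with 69 Bglap UMIs at muscle level. For Alpl the weighted levels were 548 and 362 CPM, below the control's 847 and 673 CPM, where 363 and 208 CPM were measured. For Ifitm5 they were 81.5 and 53.3 CPM, where 55.2 and 35.1 CPM were measured. Against all control spots of the section, the weighted levels had log2 ratios of -0.63 and -0.89 for Alpl and -0.51 and -0.71 for Ifitm5. For Bglap they were 0.89 and -0.27. In section 1 the weighted levels cover only part of the Nf1Postn callus but are set against the whole control. The part of the mix of regions in the genotype ratios was not tested. For Mgp the same sums were 1276 and 1016 CPM, where 1287 and 971 CPM were measured.

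**Figure D5:**
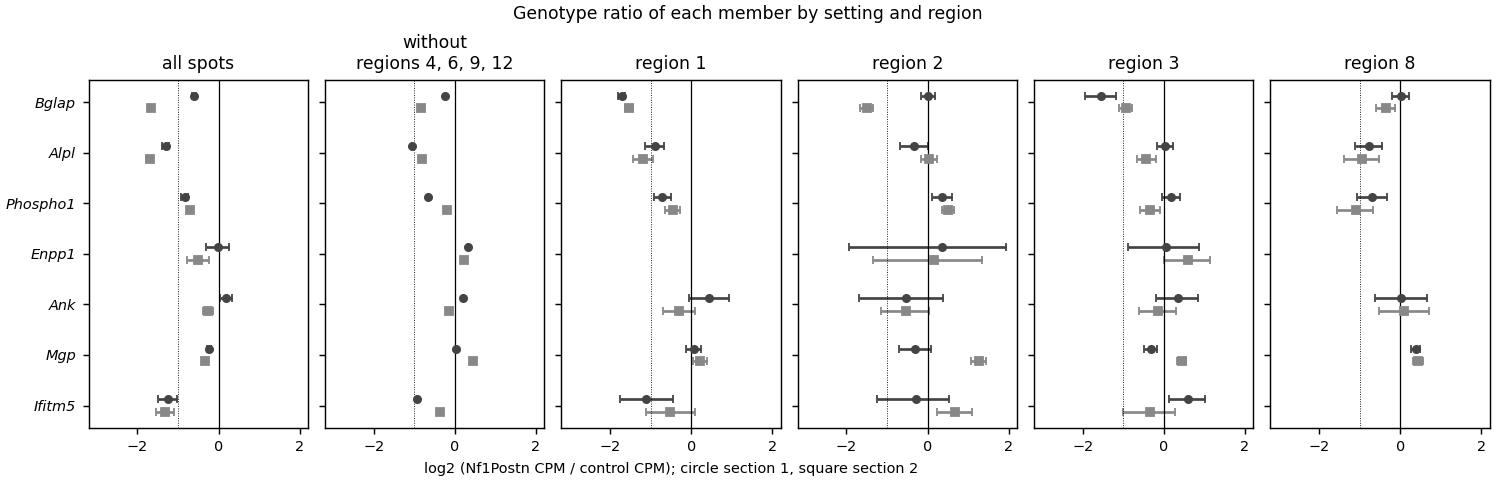
Log2 ratio of the CPM of Nf1Postn to that of control for each member, over all spots, without the muscle-rich regions 4, 6, 9 and 12, and within regions 1, 2, 3 and 8. Circles are section 1 and squares section 2, bars are exact 95% intervals of counting error (none in the panel without muscle), and a member with under 50 UMIs in a section, both genotypes together, is left out. Bglap lies at -1.71 and -1.53 in region 1 and at 0.01 and -1.50 in region 2, and Mgp lies above 0 in region 8.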

How the data were processed

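The authors hybridized mouse Visium probe pairs to formalin-fixed sections and processed the reads with Space Ranger 1.3.0 against mm39, per the labels. The deposited values were UMI counts per gene and spot, treated as estimated counts because 10 entries were not whole, which were rounded only for thinning. An entry without a gene name (6.81e-05% and 3.76e-05% of UMIs) was left out. The authors' genotype, tissue, SpatialTime and pseudotime annotations per spot were used as given, and 5 spots without a genotype were set aside. The members and gene lists were chosen with earlier results of these data known.

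Counts of a group of spots were summed and divided by the group's total (CPM). Ratios carry exact 95% intervals for 2 Poisson counts and shares exact Clopper-Pearson intervals, both covering counting error only. Where a group had 0 UMIs, the floor was 3 counts. Genes needed at least 50 UMIs in each section, and a call was a ratio of at least 2-fold in both sections, with no test. Regions came from Leiden clustering of log2(CPM + 1) centred per section, without members and listed genes. It used leidenalg 0.10.2, igraph 0.11.9 and scikit-learn 1.9.0, with resolution 0.5, 20 principal components and a graph of shared neighbours among 15. Genes named were the members, examples from lists of related function, and genes from the 5 of highest Pearson r with each member over control profiles. The examples were not always the genes with the largest and smallest ratios of their list. The ratio script was checked on simulated data. Alternatives were TMM factors (edgeR 4.0.16, R 4.3.3), thinning to 1000 UMIs, a minimum of 1000 UMIs per spot, means of log2(CPM + 1), other folds, other filters, other clusterings, the study's labels and single sections. Leaving out muscle-rich regions (muscle list above 90000 CPM) and the profile under 20000 UMIs was chosen after seeing the data. Other steps used Python 3.11.15, numpy 2.4.6, pandas 2.3.3 and scipy 1.17.1. Bglap2 was not analysed here.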

Additional observations from a re-analysis of the deposited data

Results flagged for a closer look

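The genotype ratio of Phospho1 had opposite signs in different regions, with both sections' counting intervals on the same side of 0 in each. In the woven bone region it was 0.36 and 0.50 (log2, sections 1 and 2), whereas it was -0.71 and -0.46 in region 1, -0.69 and -1.10 in region 8 and -0.74 and -0.27 in region 9. Pooled over sections, the ratio in the woven bone region was higher by 1.09, 1.35 and 0.89 than in these regions. Only 9 and 27 Nf1Postn spots lay in the woven bone region, and region 9 is led by muscle genes. Muscle was taken above as near background. Phospho1 there was at 363 and 389 CPM in control and 335 and 298 CPM in Nf1Postn (sections 1 and 2). It was lower in region 8, at 285 and 271 CPM in control and 177 and 126 CPM in Nf1Postn. The same held in region 9, at 351 and 268 CPM in control and 211 and 222 CPM in Nf1Postn. No Phospho1 difference is therefore read from regions 8 and 9.

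Mgp, the inhibitor of cartilage and vessel mineral, was higher in the Nf1Postn spots of region 8 (0.38 and 0.43) and lower in those of region 9 (-0.44 and -0.31), a pooled difference of 0.74. These differences between regions were not tested, since each genotype is 1 mouse.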

How the results depend on the processing

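Of the main counts under other settings, 29 stayed within 1.5 times and 13 moved. The pooled log2 ratio changed sign for members not called: without muscle-rich regions, Enpp1 went from -0.31 to 0.27, Mgp from -0.33 to 0.24 and Ank from -0.06 to 0.02, and without section 2 Ank went to 0.18. It stayed below 0 for Alpl, Ifitm5, Bglap and Phospho1 in each setting. The count of members at least 2-fold lower in Nf1Postn over all spots, 2, became 6 with means of log2(CPM + 1), 4 at a fold of 1.5 and 0 without muscle-rich regions, and was 2 to 3 with a section left out (Bglap was added without section 1). The same count over all genes, 187, became 337 with TMM factors, 2527 with means of log2(CPM + 1), 755 at a fold of 1.5 and 48 without muscle-rich regions, and 272 to 731 with a section left out. The split of higher to lower genes was 499 to 187, 394 to 337 with TMM and 72 to 2527 with means of log2(CPM + 1), where the median of all genes was -0.56. Members highest in the woven bone region, 2, became 4 at resolution 0.3, 4 with means of log2(CPM + 1) and 4 with the authors' labels, and were 2 to 3 with a section left out. Members 2-fold lower within that region were 0 to 1 with a section left out (Bglap without section 1). For both of these counts the share of all genes was taken at the main setting only, so their changes are not read as a result about the members. Pairs of members with r above 0.1 in both control sections were 3 after thinning and 6 without. Phospho1 left the genes 2-fold higher far from the fracture plane with means of log2(CPM + 1) and after thinning. The causes were not tested. No paired analysis was possible because both sections hold the same calluses and no test was run. Depth limits Enpp1 and Ifitm5, with at most 159 and 210 UMIs in a Nf1Postn section.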
